A study of Mus musculus with 2 samples.

Results

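The 8 genes described here, Cd274, Pdcd1lg2, Cd80, Cd86, Cd276, Lgals9, Pvr and Nectin2, encode ligands of inhibitory and costimulatory receptors on T cells and NK cells. They were chosen by symbol and all 8 were found among the 31253 genes of the deposited matrices. They were followed in CD45-positive cells isolated from GL261 tumours. GL261 is a mouse glioma cell line that grows in the brain of C57BL/6 mice with an intact immune system. The PBS library came from tumour-bearing mice given PBS by gavage, and its label calls it untreated. The ibudilast library came from tumour-bearing mice given 20 mg/kg ibudilast by gavage, 5 times a week for 2 weeks. Ibudilast is a phosphodiesterase inhibitor that also blocks the cytokine MIF. The labels call the cells tumour-infiltrating lymphocytes, yet most of the gated cells carried myeloid markers. How many mice were pooled for a library could not be learned from the labels. Each group had a single library, so nothing was tested. Intervals below are 95% intervals that cover counting error only, and a difference between libraries cannot be told apart from a difference between mice or preparations.

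T cells need costimulation beside the signal of the antigen receptor, and ligands on antigen-presenting cells set the balance between activation and restraint. CD80 and CD86 bind the activating receptor CD28 and the inhibitory receptor CTLA-4. PD-L1 (from Cd274) and PD-L2 (from Pdcd1lg2) bind the inhibitory receptor PD-1. In gliomas, macrophages and monocytes are abundant, and interferon gamma is a well-known inducer of PD-L1 on them.

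Depth and gating bear on every value. The libraries held 8968 PBS and 8483 ibudilast barcodes with 119113794 and 82196922 UMIs (unique molecular identifiers, 1 per captured transcript). After filters, 7666 and 6655 cells were kept, with medians of 11647 and 7840 UMIs, and 19 barcodes occurred in both libraries. Mitochondrial RNA removed 8.93% of PBS and 15.6% of ibudilast barcodes. Cells were sorted into types by counting detected marker genes. This gave 3056 PBS and 1185 ibudilast macrophages, 784 and 1124 monocytes, 728 and 769 cells with both macrophage and monocyte RNA (called intermediate here), and 174 and 54 microglia. Among dendritic cells there were 106 and 136 cDC1, 175 and 158 cDC2, 152 and 196 migratory and 67 and 51 plasmacytoid cells, and there were 40 and 45 B cells. Some gates held RNA of other types: cDC2 had a median of 699 and 649.9 CPM (UMIs per 1000000 UMIs) of cDC2 markers and of 3358 and 4144 CPM of classical monocyte markers. For cDC1 the medians were 2430.1 and 2356 CPM of cDC1 markers and 1993 and 2836 CPM of classical monocyte markers, and for microglia 3183 and 3366 CPM of microglia markers and 55848 and 51174 CPM of macrophage markers. The part of this RNA in the results was not tested. Cells within 1.5 times of the C1q limit that separates macrophages from the other types made up 1.83% and 3.63% of macrophages, 8.04% and 8.01% of monocytes and 5.92% and 2.55% of migratory dendritic cells. The migratory dendritic gate asked for at least 5 detected migratory markers, none of which is a ligand gene described here. Its medians of 9558 and 10085 CPM of those markers therefore follow from the gate. Haemoglobin RNA, a sign of blood in the preparation, came to 189 and 376 CPM across the kept cells. T-gated and NK-gated cells without C1q above the limit, 521 and 735 T cells and 174 and 365 NK cells, stand beside the results as cells in which free RNA from myeloid cells can be read. Their summed C1q RNA was 4.94% and 3.82% of the macrophage level in T cells and 4.39% and 3.57% in NK cells. The C1q limit of the gate capped these shares beforehand, and they read only RNA of cells rich in C1q. What free RNA of any type adds to the ligand genes in T and NK cells was not tested.

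Both PD-1 ligand genes lie next to each other. In the GRCm38 annotation Cd274 spans chr19:29367455-29388095 and Pdcd1lg2 spans chr19:29410919-29471161, both on the plus strand, with a gap of 22.8 kb and 0 annotated genes between. Pvr (chr7:19903578-19921160) and Nectin2 (chr7:19716644-19750483) share a region of the minus strand with 13 genes in the 153 kb between them. Cd80 (chr16:38455561-38496335, plus strand) and Cd86 (chr16:36603869-36666081, minus strand) are on one chromosome with 46 genes between. Cd276 lies at chr9:58524298-58555437 and Lgals9 at chr11:78962974-78984946, both on the minus strand. Annotated transcripts on the opposite strand overlap Cd274, Pdcd1lg2, Pvr, Nectin2 and Cd276. Whether any reads of these partners entered the counts was not tested.

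Upstream sequences are shown for 3 genes with opposite patterns across cell types: Cd274 and Pdcd1lg2 were high in migratory dendritic cells, and Lgals9 was low there. They come from RefSeq on GRCm38.p6, are written 5′ to 3′ on the gene's strand, end at the last base before the RefSeq start for Cd274 and Pdcd1lg2 and 22 bases short of that for Lgals9, and cover chr19:29367188-29367437, chr19:29410669-29410918 and chr11:78984947-78985174. Capitals mark the interferon regulatory factor element GAAANNGAA on either strand.
Cd274: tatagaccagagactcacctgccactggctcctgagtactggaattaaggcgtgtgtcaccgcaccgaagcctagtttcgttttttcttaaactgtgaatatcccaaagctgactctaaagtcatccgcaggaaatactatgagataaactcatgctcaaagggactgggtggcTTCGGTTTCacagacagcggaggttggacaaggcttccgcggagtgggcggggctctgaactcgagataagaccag
Pdcd1lg2: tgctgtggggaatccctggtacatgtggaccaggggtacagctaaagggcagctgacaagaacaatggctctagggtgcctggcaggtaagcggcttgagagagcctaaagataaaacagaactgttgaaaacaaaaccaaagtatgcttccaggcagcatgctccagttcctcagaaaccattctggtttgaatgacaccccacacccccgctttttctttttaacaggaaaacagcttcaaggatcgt
Lgals9: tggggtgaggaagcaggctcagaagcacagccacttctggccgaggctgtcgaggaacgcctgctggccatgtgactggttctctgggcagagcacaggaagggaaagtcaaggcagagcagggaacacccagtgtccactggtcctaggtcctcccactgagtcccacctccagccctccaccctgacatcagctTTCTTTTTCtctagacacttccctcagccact

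The element lay 76 to 68 bases before the start of Cd274 and 54 to 46 bases before that of Lgals9, and 7.15% of the 32544 mouse promoters held it in their 250 bases. The gamma-activated site TTCNNNGAA, held by 7.04% of promoters, was found in 0 of the 6 members searched, which says only that these letters are not in that window. For Cd80, Cd276 and Nectin2 all 250 bases searched lay inside the gene span given above, so the annotated gene starts were not covered there. Cd86 and Pvr were not in the promoter table.

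Cd274 (PD-L1) was highest in neutrophils and migratory dendritic cells, at moderate levels in monocytes and macrophages, and lowest in plasmacytoid dendritic cells, cDC1 and NK cells. In migratory dendritic cells, which carry antigen to lymph nodes, it stood at 337 CPM (306 to 371, from 424 UMIs) in PBS and 409 CPM (377 to 444, from 581 UMIs) in ibudilast. That was 3.33-fold (3.01 to 3.68) and 5.06-fold (4.56 to 5.62) the macrophage level, which was 101 CPM in PBS and 80.8 CPM in ibudilast. Monocytes had 125 and 130.1 CPM, intermediate cells 103 and 114 CPM, microglia 80.3 and 86.0 CPM, and cDC2 67.6 and 89.1 CPM. In PBS the steps from neutrophils to migratory dendritic cells and from those to monocytes were larger than the intervals. The step from monocytes to intermediate cells was so as well, and that from intermediate cells to macrophages was not. In ibudilast neutrophils and migratory dendritic cells could not be ordered. The neutrophils were only 38 cells in each library, with a median of 2535 and 2538 UMIs, and held 95 and 59 UMIs of Cd274, that is 798 CPM (646 to 976) and 407 CPM (310 to 525).

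T cells had 46.1 and 51.4 CPM of Cd274 and NK cells 33.9 and 46.1 CPM. If their Cd274 had come from macrophage RNA in the share of their C1q, T cells would show 5.00 and 3.09 CPM and NK cells 4.45 and 2.89 CPM. That share was capped by the gate and leaves out RNA of other types, so the source of this Cd274 was not tested. The oligodendrocyte-gated barcodes, 18 and 64 cells, stood at 117 and 131 CPM although their C1q was only 1.30% and 1.11% of the macrophage level, and where that RNA came from was not tested.

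Counted by cells, 79.6% (72.3 to 85.7%) of PBS and 84.2% (78.3 to 89.0%) of ibudilast migratory dendritic cells had a Cd274 UMI, at medians of 7505 and 6790 UMIs per cell. NK cells, at medians of 6699.5 and 4626 UMIs, had one in 19.5% and 20.0% of cells. Macrophages, which were deeper at medians of 14470 and 9314 UMIs, had one in 53.2% and 40.3%. After thinning each cell to 1000 UMIs, which left out 59 PBS and 83 ibudilast macrophages and 1 migratory dendritic cell in each library and 0 and 3 NK cells, the shares were 27.8% and 29.7% in migratory dendritic cells, 10.1% and 6.99% in macrophages and 5.17% and 5.80% in NK cells. Migratory dendritic cells stayed above both at equal depth, while the intervals of macrophages and NK cells overlapped in both libraries.

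Pdcd1lg2 (PD-L2) was more narrowly placed than its neighbour. By value migratory dendritic cells came first, then mast cells or basophils, then T and NK cells, and macrophages were low. Migratory dendritic cells had 156 CPM (135 to 179, from 196 UMIs) in PBS and 148 CPM (129 to 169, from 210 UMIs) in ibudilast, 16.1-fold (13.6 to 19.1) and 17.1-fold (13.5 to 21.8) the macrophage levels of 9.65 and 8.65 CPM. T cells had 43.3 and 43.5 CPM, so 27.4% and 28.4% of T cells had a UMI, against 9.49% and 7.34% of the deeper macrophages. NK cells had 44.7 CPM in PBS and 24.5 CPM in ibudilast. Macrophage RNA in the share of C1q would give T cells 0.476 and 0.331 CPM. Mast cells or basophils, only 67 and 35 cells, stood between migratory dendritic cells and T cells, at 101 and 81.1 CPM from 37 and 18 UMIs. Microglia (4.02 and 9.26 CPM, 12 and 7 UMIs) and plasmacytoid dendritic cells (2 and 0 UMIs) were low.

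Cd80 (B7-1) was also high in migratory dendritic cells, with PBS neutrophils beside them. Migratory dendritic cells had 103 CPM (85.6 to 122) in PBS and 98.6 CPM (82.9 to 116) in ibudilast, 14.6-fold (11.8 to 17.9) and 16.2-fold (12.1 to 21.7) the macrophage levels of 7.05 and 6.09 CPM. Monocytes, at 15.02 and 12.6 CPM, were 2.13-fold (1.66 to 2.71) and 2.07-fold (1.51 to 2.84) above macrophages. NK cells held 1 UMI in each library, so 0.575% and 0.274% of them were positive, against 51.3% and 42.9% of migratory dendritic cells and 9.33% and 5.57% of macrophages. At 1000 UMIs per cell the shares were 9.93% and 7.69% in migratory dendritic cells, 0.667% and 0.907% in macrophages and 0 of 174 and 0 of 362 in NK cells, which allows up to 1.72% and 0.829%. PBS neutrophils held 20 UMIs, or 168 CPM (103 to 260), and ibudilast neutrophils 5 UMIs, or 34.5 CPM (11.2 to 80.5).

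Cd86 (B7-2) was spread over macrophages, monocytes, microglia and conventional dendritic cells within a narrow band. The PBS values ran from 223 CPM in macrophages over 223 CPM in cDC2, 237 CPM in cDC1, 250.1 CPM in intermediate cells, 269 CPM in monocytes and 271 CPM in microglia to 321 CPM (291 to 354) in migratory dendritic cells. Over the same types the ibudilast values ran from 199 CPM in macrophages to 287 CPM (250.1 to 328) in microglia, and the intervals of neighbours overlapped from microglia through cDC2, monocytes, cDC1 and migratory dendritic cells to intermediate cells. Plasmacytoid dendritic cells (75.6 and 41.0 CPM) and B cells (116 and 143 CPM) were below the macrophage level. Among lymphoid cells NK cells were lowest, with 15.6 CPM (9.88 to 23.4) and 33.1 CPM (25.8 to 41.9), where the share of C1q would give 9.78 and 7.10 CPM. The share of cells with a UMI was 83.3% and 66.2% in macrophages and 64.5% and 62.8% in migratory dendritic cells. At 1000 UMIs it was 20.2% and 17.7% against 20.5% and 17.4%, so the gap between these types was not seen at equal depth.

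**Figure D1:**
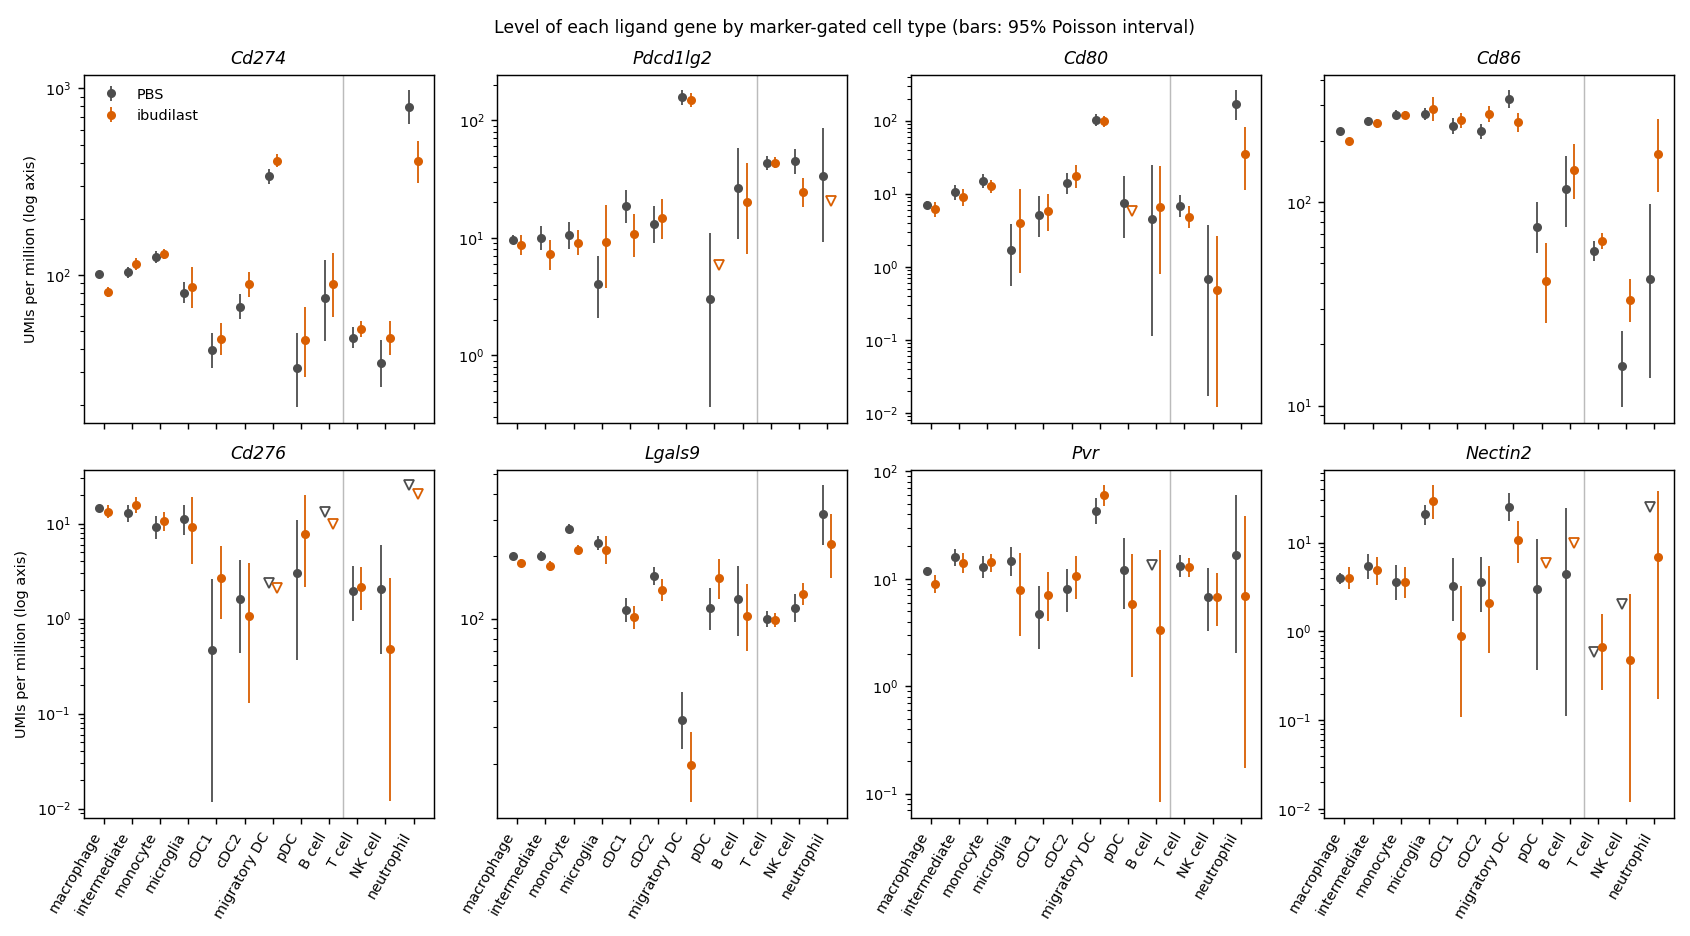
Level of each gene in CPM (log axis, different for each gene) by gated type, PBS in grey and ibudilast in orange. Bars are 95% Poisson intervals, open triangles mark 0 UMIs and stand at the level of 3 UMIs, and types right of the line are shown for reference. Migratory dendritic cells top the panels of Pdcd1lg2 (156 and 148 CPM) and Pvr (42.9 and 59.9 CPM) and are at the bottom of Lgals9 (32.6 and 19.7 CPM).

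Cd276 (B7-H3), a family member whose receptor is not settled, was highest in macrophages and the types closest to them among the main types. Macrophages had 14.4 CPM (13.4 to 15.6) and 13.3 CPM (11.4 to 15.6), intermediate cells 12.9 and 15.7 CPM, microglia 11.05 and 9.26 CPM, and monocytes 9.15 and 10.6 CPM, and the intervals of neighbours in this order overlapped. Migratory dendritic cells held 0 UMIs in both libraries, which allows up to 2.38 and 2.11 CPM at 3 counts. These floors lay 6.06-fold and 6.32-fold under the macrophage values. With the counting error of both types, the ratio to macrophages could be up to 0.204 and 0.197. B cells held 0 UMIs as well, but with 40 and 45 cells the floor was 13.3 and 9.98 CPM, close to the macrophage level. cDC1 and cDC2 held 1 to 6 UMIs in each library. T cells had 1.95 and 2.16 CPM. Among the other lineages the mast cells or basophils were highest at 40.8 CPM (22.9 to 67.3) and 31.6 CPM (12.7 to 65.0).

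Lgals9 encodes galectin-9, a sugar-binding protein and ligand of TIM-3. It was high in monocytes (271 and 215 CPM), microglia (232 and 214 CPM) and macrophages (201 and 186 CPM), and migratory dendritic cells were the lowest of the types compared in both libraries. These had 32.6 CPM (23.4 to 44.2) in PBS and 19.7 CPM (13.1 to 28.5) in ibudilast, 0.162-fold (0.116 to 0.220) and 0.106-fold (0.0703 to 0.154) the macrophage level. The next lowest types, T cells with 99.1 CPM in PBS and oligodendrocyte-gated barcodes with 81.2 CPM in ibudilast, lay above those intervals. Among dendritic cells cDC2 had 160.1 and 138 CPM, cDC1 110.1 and 101 CPM and plasmacytoid cells 112 and 156 CPM. NK cells had 113 and 132 CPM, above the 8.84 and 6.64 CPM that the share of C1q would give. At 1000 UMIs per cell, 23.8% and 17.9% of monocytes, 17.0% and 15.1% of macrophages and 1.99% and 1.54% of migratory dendritic cells had a UMI.

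Pvr (CD155) and Nectin2 (CD112) are nectin-like adhesion proteins that bind the activating receptor CD226 and the inhibitory receptors TIGIT and, for Pvr, CD96. Pvr was highest in migratory dendritic cells at 42.9 CPM (32.2 to 56.0) and 59.9 CPM (47.8 to 74.0), 3.66-fold (2.71 to 4.85) and 6.67-fold (4.96 to 8.94) the macrophage levels of 11.7 and 8.98 CPM. The remaining main types lay between 0 and 15.8 CPM in PBS and between 3.33 and 14.2 CPM in ibudilast. Among the main types Nectin2 was highest in microglia and migratory dendritic cells. Microglia had 20.8 CPM (15.9 to 26.6) and 29.1 CPM (18.2 to 44.1), 5.20-fold (3.84 to 6.97) and 7.21-fold (4.15 to 12.2) the macrophage levels of 3.99 and 4.04 CPM. Migratory dendritic cells had 25.4 CPM (17.4 to 35.9) in PBS and 10.6 CPM (5.91 to 17.4) in ibudilast. T cells held 0 Nectin2 UMIs in PBS and 5 UMIs in ibudilast. In PBS the floor of 3 counts lay 6.82-fold under the macrophage value. With the counting error of both types, the ratio to macrophages could be up to 0.182.

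Within migratory dendritic cells the transcripts of several ligands occurred in the same cells. UMIs of both Cd274 and Pdcd1lg2 were found in 46.1% of PBS and 43.9% of ibudilast cells, and of both Cd274 and Cd80 in 44.7% and 38.3%. Whether this overlap exceeds that of genes spread independently over the cells was not tested. Of the cells with a Pdcd1lg2 UMI, 81.4% and 90.5% had one of Cd274, against 77.3% and 78.2% of those without. Cd274 was seen in 87.2% and 89.3% of the cells with a Cd80 UMI and in 71.6% and 80.4% of those without. The double-positive cells were also deeper, with medians of 7941 and 6801 UMIs against 5112 and 4616 in cells with neither, and the part of depth in this was not tested. In macrophages both were seen in 6.32% and 2.70% of cells. Pvr and Nectin2 were seen together in 5.26% and 3.06% of migratory dendritic cells.

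UMIs of Cd86 were less evenly spread over migratory dendritic cells than those of Cd274. The 10% of cells with the most UMIs held 50.2% and 47.0% of Cd86 UMIs, up to 23 and 28 in a cell, but 30.7% and 29.6% of Cd274 UMIs, up to 11 and 13 in a cell.

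**Figure D2:**
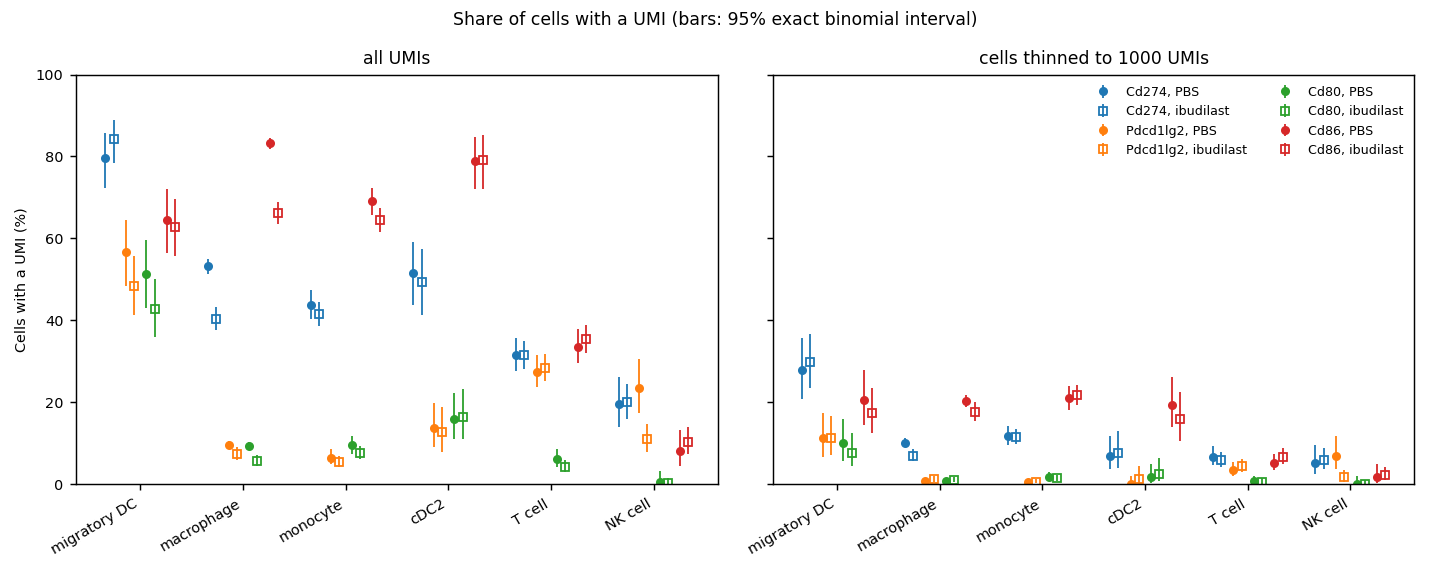
Share of cells with at least 1 UMI of 4 genes (percent, y axis) in 6 types, with all UMIs on the left and after thinning each cell to 1000 UMIs on the right. Filled circles are PBS, open squares ibudilast, bars 95% exact binomial intervals. Migratory dendritic cells keep the highest share for Cd274 (27.8% and 29.7% thinned), Pdcd1lg2 and Cd80, while thinned Cd86 lies between 15.9% and 21.8% in migratory dendritic cells, macrophages, monocytes and cDC2.

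The likeness of the genes across types was described by the Pearson correlation of log2(CPM + 1) over 20 points, 10 types in each of the 2 libraries. Only types with at least 50 cells in each library entered. Neutrophils, B cells, mast cells or basophils and oligodendrocyte-gated barcodes were therefore left out. The points share libraries, depth and gating, so no p is given. Cd274 ran most closely with Pvr (0.851) and Cd80 (0.804), and Cd80 with Pvr (0.801). Cd276 ran with Lgals9 (0.789). Pdcd1lg2 and Lgals9 ran in opposite directions (-0.731). Over the 10196 genes searched, the most alike were Adap1, Fam49a and Rnf19b for Cd274 (0.979, 0.960 and 0.947) and Nae1, Nup54 and Myl12a for Pdcd1lg2 (0.958, 0.944 and 0.922). For Cd80 they were Gstt3, Marcksl1 and Zfand3 (0.919, 0.907 and 0.886), and for Cd86 Parp12, Cxcl9 and Tcp11l1 (0.928, 0.922 and 0.912). For Cd276 they were Slc36a1, Fcgr2b and Tgfbr1 (0.959, 0.945 and 0.944), and for Lgals9 Vav1, Disc1 and Maml3 (0.944, 0.936 and 0.934). For Pvr they were Rab9, Flrt3 and Socs2 (0.914, 0.898 and 0.893), and for Nectin2 Clta, Dstn and Arl8a (0.880, 0.877 and 0.876).

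Levels of Cd274 also varied within types. Monocytes with at least 2 UMIs of Cxcl9, a chemokine gene induced by interferon gamma, had 164 CPM (150 to 180) in PBS and 149 CPM (136 to 162) in ibudilast. Monocytes below that had 89.7 CPM (79.3 to 101) and 114 CPM (104 to 125). In macrophages the same split gave 104 and 82.1 CPM against 92.1 and 78.5 CPM. Macrophages with at least 2 UMIs of cycling genes, 746 PBS and 254 ibudilast cells, had 81.3 CPM (76.8 to 85.9) and 51.0 CPM (44.0 to 58.8) of Cd274, while the others had 111 CPM (107 to 115) and 93.9 CPM (87.4 to 101). The splits were chosen after the data were seen, and cells on the positive side were deeper, with medians of 20865 and 13705 UMIs in cycling macrophages against 13210 and 8510 in the others. The part of depth was not tested.

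The comparison of ibudilast with PBS asked whether the drug was accompanied by other ligand levels in the same cell types. Of 72 combinations of 8 genes and 9 types, 55 had at least 20 UMIs over both libraries. A ratio (ibudilast over PBS) was called when ibudilast was at least 25% higher or at least 20% lower and the interval left out 1. By this rule 2 combinations were called higher and 7 lower. Of all genes tested, 4.39% to 7.84% were called higher and 3.16% to 5.25% lower, depending on the type. The other combinations were not called, with many intervals too wide to see changes of that size. A type with any call had 1 or 2 called genes.

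In macrophages, which had 39.9% of kept PBS cells and 17.8% of kept ibudilast cells, 2 of the 8 genes were called lower and 0 higher, where 3.16% and 7.84% of the 12232 genes tested were. Cd274 went from 101 CPM to 80.8 CPM, a ratio of 0.799 (0.745 to 0.856). Pvr went from 11.7 to 8.98 CPM, a ratio of 0.765 (0.617 to 0.942), and this call was lost with stricter gates (0.831), in clusters (0.871), with cells weighted alike (0.876) and in thinned cells (0.944). Cd86 at 0.893 (0.854 to 0.933) and Lgals9 at 0.924 (0.882 to 0.968) had intervals under 1 but did not reach the limit of 0.8. Pdcd1lg2, Cd80, Cd276 and Nectin2 had intervals that held 1. The median log2 ratio of the 8 genes was -0.16 and that of all genes tested 0.04. The Cd274 ratio was close to the limit: it was 0.801 with the highest doublet scores kept, 0.829 with stricter gates and 0.890 in clusters in place of gates, which ended the call. When each cell was weighted alike instead of each UMI, it was 0.960. The interval used for that call, 0.895 to 1.03, was only scaled from that of the summed UMIs. Among cycling macrophages the ratio was 0.628 (0.536 to 0.732) and among the others 0.844 (0.781 to 0.912).

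In monocytes 1 of 8 genes was called lower and 0 higher, where 4.53% and 5.57% of 10327 genes were. Lgals9 went from 271 to 215 CPM, a ratio of 0.794 (0.740 to 0.852). In monocytes with under 2 UMIs of Cxcl9 it was 0.654 (0.593 to 0.722), and in those with at least 2 it was 0.979 (0.884 to 1.08). Over all monocytes Cd274 at 1.04 (0.942 to 1.14) and Cd86 at 0.994 (0.930 to 1.06) were nearly level. These intervals leave out changes past the limits for the type as a whole. By the same split, Cd274 was at 1.27 (1.09 to 1.48) under 2 UMIs of Cxcl9, past the 25% limit. With at least 2 UMIs it was at 0.907 (0.798 to 1.03). Cd86 was at 0.884 and 1.11 in these parts. The difference between the parts was not tested. In intermediate cells 0 of 8 genes were called in either direction, where 5.38% of genes were called higher and 4.05% lower. In microglia 0 of 6 tested genes were called, where 5.01% and 3.58% were.

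In migratory dendritic cells 2 of 7 tested genes were called lower and 0 higher, where 4.5% and 5.62% of 7061 genes were. Nectin2 went from 32 to 15 UMIs, or from 25.4 to 10.6 CPM, a ratio of 0.415 (0.209 to 0.789). It was called under each of the 9 alternatives that gave it a value, at 0.369 to 0.419. Among these, a minimum of 1 UMI used the same counts and could not change the ratio. A minimum of 50 UMIs and thinned cells gave no value because Nectin2 had too few UMIs there. Cd86 went from 321 to 247 CPM, a ratio of 0.770 (0.665 to 0.890). With cells weighted alike Cd86 reached 0.877 (0.758 to 1.01, scaled from the interval of the summed UMIs). Cd274 went the other way, at 1.21 (1.07 to 1.38), short of the 25% that a call needs. Pvr was at 1.39 (0.980 to 2.00) and Lgals9 at 0.605 (0.360 to 1.002), both with intervals that held 1. Pdcd1lg2 at 0.949 (0.778 to 1.16) and Cd80 at 0.961 (0.751 to 1.23) showed no call.

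The other dendritic types gave 1 or 2 calls each. In cDC2, 1 of 6 genes was called higher and 0 lower, where 4.39% and 4.47% of genes were. This was Cd274, with 169 UMIs in each library at 67.6 and 89.1 CPM, a ratio of 1.32 (1.06 to 1.64), which was 0.976 (0.874 to 1.09) in the cDC2 clusters. In cDC1, 0 of 6 were called higher and 1 lower, where 5.86% and 4.47% of genes were. This was Pdcd1lg2, with 40 and 24 UMIs, a ratio of 0.572 (0.330 to 0.973), although 13.2% of PBS and 14.7% of ibudilast cDC1 had a UMI. A single PBS cell held 16 of the 40 UMIs, while no ibudilast cDC1 held more than 2. With the highest cell of each library left out, an alternative chosen after seeing the data, the ratio was 0.871 (0.466 to 1.62), and under a stricter C1q limit it was 0.899 (0.452 to 1.80), so the call was lost in both. In plasmacytoid dendritic cells 1 of 3 genes was called higher and 1 lower, where 4.54% and 3.26% of genes were. Lgals9 was at 1.40 (1.005 to 1.94), from 74 and 80 UMIs, and Cd86 at 0.542 (0.309 to 0.920), from 50 and 21 UMIs. With the highest cell left out both lost the call, at 1.37 (0.971 to 1.94) and 0.646 (0.345 to 1.17). In B cells 0 of 3 genes were called, where 5.35% and 5.25% of genes were.

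In the reference types, 0 of 7 genes were called in T cells, where 4.04% of genes were called higher and 3.84% lower. In NK cells 1 of 5 was called higher and 1 lower, where 8.62% and 7.17% were. There Cd86 went from 23 to 69 UMIs, a ratio of 2.12 (1.31 to 3.57), and Pdcd1lg2 from 66 to 51 UMIs, a ratio of 0.547 (0.372 to 0.801). NK cells also had 7 of 11 free RNA probe genes called higher and 0 lower in ibudilast, among them Apoe at 1.28, Cd74 at 1.41 and Hbb-bs at 37.2, while C1qa was at 0.870. The part of free RNA in the 2 NK calls was not tested.

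**Figure D3:**
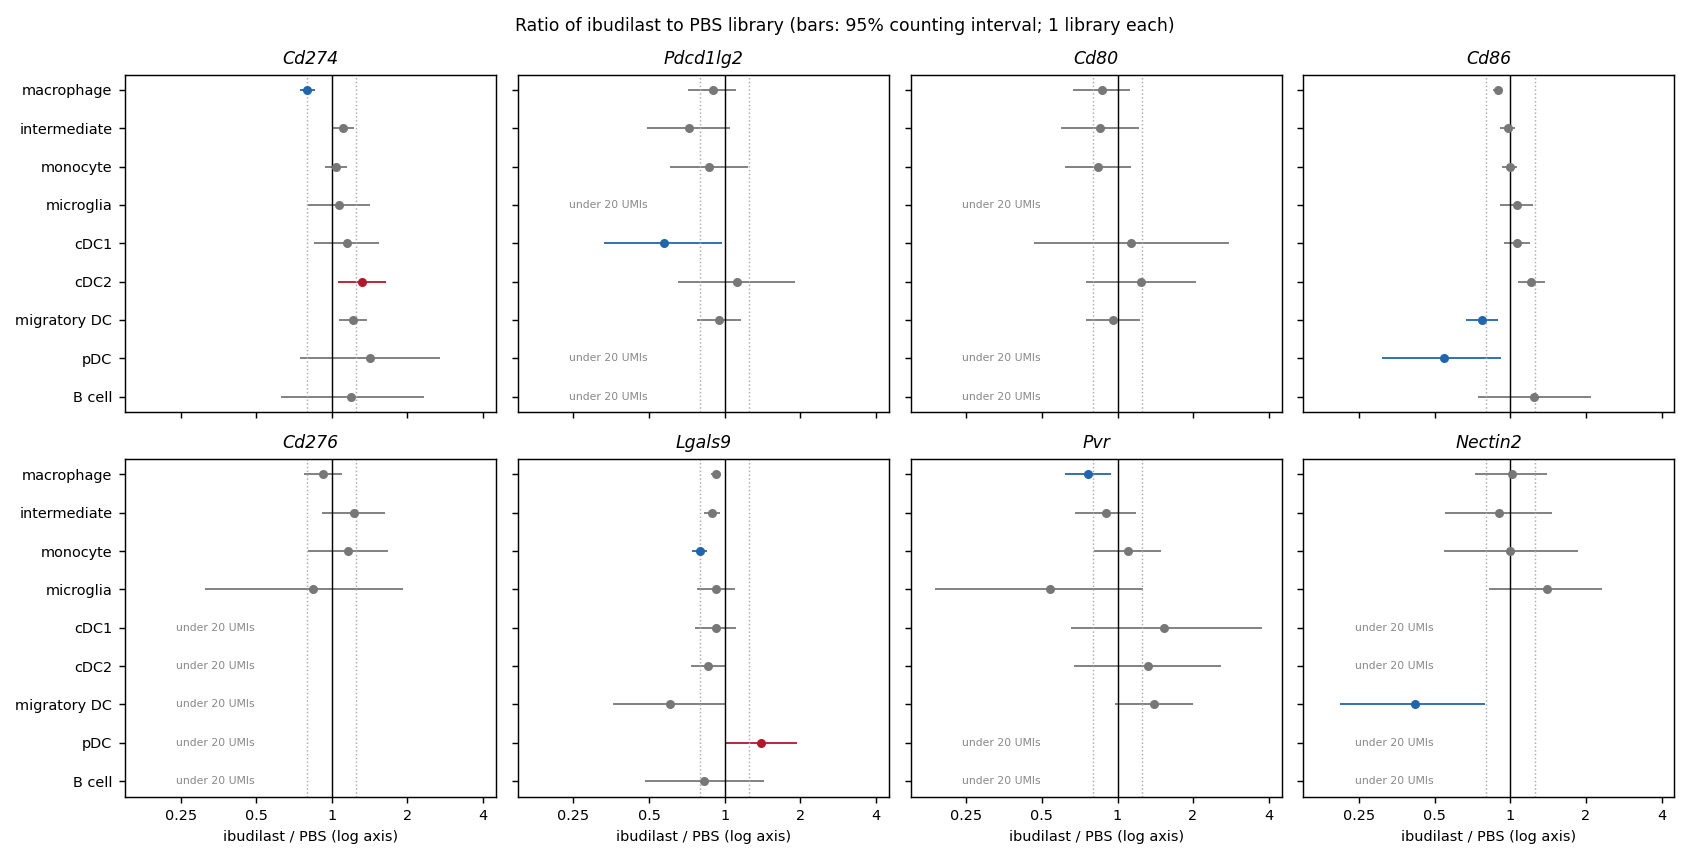
Ratio of ibudilast to PBS (log axis) for each gene and gated type, 1 library each. Bars are 95% counting intervals, dotted lines the limits of a call, blue called lower, red called higher, grey not called, and combinations under 20 UMIs are written out. Most of the 55 intervals cross 1.

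The receptors of these ligands were read with a list of 9 genes. In T cells, where all 9 were tested, 0 were called in either direction: Pdcd1 (PD-1) was at 210 and 223 CPM and Cd28 at 253 and 235 CPM. Ctla4 was at 391 and 326 CPM, a ratio of 0.833 (0.785 to 0.885). Havcr2, which encodes TIM-3, had 78.4 and 92.6 CPM. In macrophages 3 of 8 tested genes were called higher and 0 lower: Pdcd1 went from 52 to 39 UMIs (1.13 to 3.21 CPM), Cd28 from 103 to 94 UMIs (2.23 to 7.74 CPM) and Ctla4 from 247 to 110 UMIs (5.36 to 9.06 CPM). These levels were low beside those in T cells, and the part of T-cell RNA in them was not tested. Macrophage Havcr2 was at 89.2 and 93.3 CPM, a ratio of 1.05 (0.978 to 1.12).

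Other ligands of the B7, butyrophilin, nectin and galectin families formed a list of 17 genes. In macrophages 11 were tested, with 1 called higher, Lgals1 (galectin-1) from 510 to 702 CPM at 1.38 (1.34 to 1.41), and 0 lower, and the median log2 ratio was 0.07. Lgals3, Hmgb1, Fgl2 and Vsir (VISTA) were at ratios of 1.15, 1.05, 1.004 and 1.05 there. In migratory dendritic cells 9 were tested. Icosl, the ligand of ICOS, was called higher at 1.48 (1.08 to 2.05), while Lgals1 at 0.740 (0.632 to 0.866) and Lgals3 at 0.799 (0.709 to 0.901) were called lower. There Apoe at 0.741, C1qa at 0.690 and Lyz2 at 0.608, genes of macrophages and monocytes, were lower as well, and their part in the Lgals ratios was not tested.

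A list of 16 genes known to control PD-L1 was read in the same way. In macrophages all 16 were tested, 0 were called higher and 1 lower: Myc, a transcription factor, went from 35.9 to 23.97 CPM, a ratio of 0.667 (0.587 to 0.756). The interferon regulatory factor genes Irf1, Irf2 and Irf8 were at ratios of 1.05, 1.10 and 0.902, and Ifngr2, a chain of the interferon gamma receptor, at 1.03. The list median was -0.05 on the log2 scale. In migratory dendritic cells 14 were tested, 0 were called higher and 1 lower, Cmtm6, whose protein keeps PD-L1 on the cell surface, from 97.0 to 60.6 CPM, a ratio of 0.624 (0.468 to 0.830). In those cells Irf8 was at 1.20 (1.12 to 1.29), short of a call. In monocytes 15 were tested, 0 were called higher and 2 lower, Myc at 0.649 (0.478 to 0.880) and Hif1a at 0.747 (0.693 to 0.806).

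**Figure D4:**
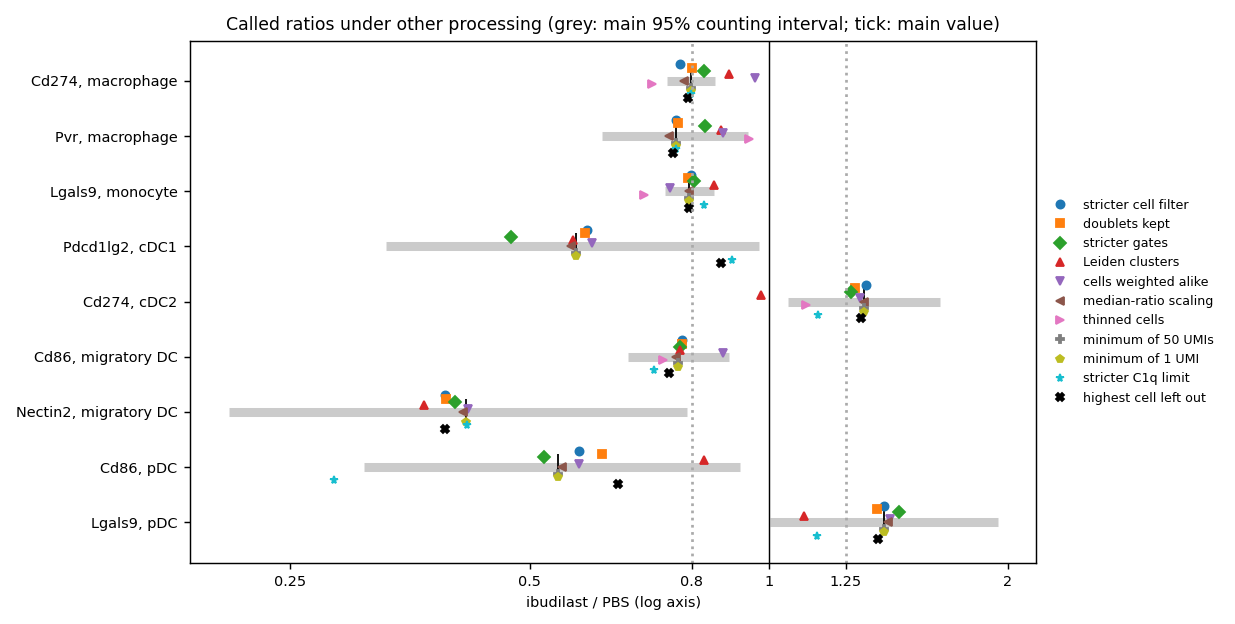
The 9 called combinations under each alternative processing (coloured symbols, and black crosses for the highest cell left out), with the reported value as a black tick and its 95% counting interval as a grey bar, on a log axis of ibudilast over PBS. Nectin2 in migratory dendritic cells stays between 0.369 and 0.419, while Cd274 in cDC2 moves to 0.976 in clusters and Cd274 in macrophages to 0.960 with cells weighted alike.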

How the data were processed

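Droplet single-cell 3′ RNA libraries (10x 3′ v3.1) of CD45-positive cells were deposited by the authors as raw UMI counts per gene and barcode, where the file headers name Cell Ranger 6.1.1 and the submitters' processing notes name mm10. Cells with at least 300 genes, 500 UMIs and under 10% mitochondrial UMIs were kept. Scrublet's own threshold marked 0 cells in both libraries, so the 6% with the highest scores (489 and 424) were left out, and cells passing gates of 2 lineages were set aside. Types were gated by detected markers, with limits of 3000 CPM of C1qa, C1qb and C1qc and 1600 CPM of monocyte markers set after the marker distributions were seen. Counts were summed per type and library and divided by the type's total UMIs. Levels have exact Poisson, shares exact Clopper-Pearson and ratios exact conditional binomial 95% intervals. With cells weighted alike, the interval was that of the summed UMIs scaled to the new ratio. Such a scaled interval does not measure the error of the weighted ratio. Only the ratio interval and the call rule were tried on simulated data, with macrophage counts. Those counts were drawn from the Poisson model that the interval assumes, so clumping of UMIs in single cells was not covered. A 0 is bounded by 3 counts. Python 3.11.15, scipy 1.17.1 and scanpy 1.11.5 were used. The text names all 8 genes, up to 5 of each list by UMIs plus those called in at least 3 types, and the 3 most alike genes. One result that this rule names is not reported here. Icosl, Cmtm6 and Hif1a fall outside that rule and were named after their values were seen. Members and lists were chosen with earlier results of these data known. T or NK cells above the C1q limit (746 and 835) and B cells above it (74 and 29) were not used.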

Additional observations from a re-analysis of the deposited data

Results flagged for a closer look

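Cd274 and Lgals9 were each called in opposite directions in different cell types, and each of these calls was lost under some of the alternative processing. The Cd274 ratio of ibudilast to PBS was 1.32 in cDC2 and 0.799 in macrophages. The Lgals9 ratio was 1.4 in plasmacytoid dendritic cells and 0.794 in monocytes. They stand out because the only library of each group was higher in one type and lower in the other; with 1 library per group the difference between types was not tested.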

How the results depend on the processing

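No paired analysis was possible because each group has 1 library. Against 2 combinations called higher, the stricter filter on cells gave 1, keeping doublets gave 1, and there were 4 with cells weighted alike, 0 in cells thinned to 1000 UMIs (29 combinations had enough UMIs) 1 under the stricter C1q limit and 1 with the highest cell of each library left out, the last 2 chosen after seeing the data. Against 7 called lower, there were 3 in thinned cells and 5 to 8 under the others. Cd274 in cDC2 turned from 1.32 to 0.976 in Leiden clusters, and the cause was not tested. The other 8 called ratios kept their direction under every alternative that gave a value, but only Nectin2 in migratory dendritic cells was called in each of them. Nectin2 there had too few UMIs for a value in thinned cells or at a minimum of 50 UMIs. Depth limits the rest: 17 of the 72 combinations had under 20 UMIs, most of them in plasmacytoid dendritic cells, B cells and cDC.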

Other observations

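Haemoglobin RNA did not move one way. Hbb-bs went from 87.6 to 34.3 CPM in macrophages (0.391, 0.353 to 0.433) and from 690.5 to 980.4 CPM in monocytes (1.42, 1.37 to 1.48), while in T cells it went from 5.07 to 36.5 CPM (7.19, 4.802 to 11.2). Apod RNA was higher in ibudilast in macrophages (4.94, 3.89 to 6.27), monocytes (2.41, 1.88 to 3.11) and migratory dendritic cells (2.75, 1.62 to 4.89), and lower in plasmacytoid dendritic cells (0.706, 0.559 to 0.889). Ctla4 RNA in NK-gated cells went from 130 to 51 UMIs, a ratio of 0.278 (0.197 to 0.387).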
